A study of Papio hamadryas with 11 samples.

Results

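The 6 mature miRNAs of the miR-199 and miR-214 hairpins were hsa-miR-199a-5p, hsa-miR-199a-3p, hsa-miR-199b-5p, hsa-miR-199b-3p, hsa-miR-214-3p and hsa-miR-214-5p (also written below without the prefix, which marks human names). They were taken by name from the 1921 mature names of a small RNA-seq table, with the hairpin entry of highest total used for each name. The livers came from 11 baboon fetuses (Papio hamadryas) at 0.9 of gestation. In 5 the mother was obese (the maternal obesity group, MO, with 2 male and 3 female fetuses), and in 6 the mother was a control (CON, with 3 male and 3 female fetuses). The sources used here give neither how the mothers became obese nor the animals' ages and genotypes. Livers are named by group and by the replicate number in the labels, and since the labels number no animals, a p-value covers only the spread among the samples.

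miR-199a and miR-214 are cut from a long noncoding RNA, DNM3OS, that runs opposite to an intron of the dynamin 3 gene and is driven by TWIST1 in human and mouse mesenchymal cells. Further copies, miR-199a and the paralogue miR-199b, lie opposite introns of the other dynamin genes. In liver the family is known from hepatic stellate cells, the vitamin A-storing pericytes that turn into collagen-producing cells in fibrosis. In human and mouse work, not all of it in stellate cells, miR-199a-5p represses caveolin 1, a brake on TGF-β signalling, and miR-214-3p represses CCN2, a profibrotic matrix protein. miR-199a-3p represses MET and mTOR, a growth factor receptor and a growth kinase.

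The libraries held 660569 to 767137 reads on known miRNAs in MO livers and 247288 to 319919 in CON livers, without overlap. The library numbers of the labels, 67 to 71 for MO and 55 to 60 for CON, also separate the groups, so a library batch and depth cannot be told apart from maternal obesity. Baboon reads had been counted against human miRNA names. The defining marker of the labelled tissue was present: the hepatocyte miRNA miR-122-5p stood at 103700 to 184500 CPM (read counts scaled to a common library total by TMM) in MO livers and at 139000 to 212500 CPM in CON livers. These are bulk livers, in which fewer cells of a type and less RNA per cell cannot be told apart.

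The family is told apart only in part by these counts. miR-199a-3p and miR-199b-3p, which are identical mature RNAs, carried the same count in all 11 libraries, so their shared value is called miR-199-3p below and cannot be assigned to a paralogue. It was counted at 3 hairpins, mir-199a-1, mir-199a-2 and mir-199b. The mir-199a-2 hairpin, the copy beside miR-214 on DNM3OS, held 13411 of these reads, and 148 of them (1.1%, exact 95% interval 0.934 to 1.3%, counting error only) were absent from the other hairpins. That share was 0.912 to 1.54% in MO livers and 0.468 to 2.07% in CON livers, so the ranges overlapped. miR-199a-5p was listed at both miR-199a hairpins with totals of 2686 and 2685 reads. The 5p arms of miR-199a and miR-199b are near-identical in sequence, and the sources used here state no mismatch limit for the counting, so their split is uncertain. miR-3120-3p and miR-3120-5p, known in human from the strand opposite miR-214, had 0 reads in every library, which allows up to 0.569 CPM over all 5268879 reads.

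With the shared 3p reads counted under 1 name, the family held 0.412, 0.473, 0.334, 0.274 and 0.267% of reads in MO replicates 1 to 5. In CON livers the share had a minimum of 0.261%, a median of 0.291% and a maximum of 0.402%. The MO replicates 1 and 2, both from female fetuses, were above every CON liver, and the other MO livers lay within the CON range.

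miR-199-3p made up most of the family. It stood at 3108, 3220, 2435, 2112 and 2110 CPM in MO replicates 1 to 5, and at a minimum of 1950, a median of 2405 and a maximum of 3268 CPM in CON livers. The groups overlapped almost entirely, and by level it ranked 38.5 of the 218 tested names in both groups (a tie of its 2 names). In the edgeR quasi-likelihood test the difference was 0.08 on the log2 scale (SE 0.16, 95% interval −0.26 to 0.42, Benjamini-Hochberg adjusted p = 0.832).

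hsa-miR-199a-5p, the arm that targets caveolin 1, stood at 593, 694, 524, 525 and 463 CPM in MO replicates 1 to 5 (393, 526, 401, 387 and 295 reads). In CON livers the minimum was 177, the median 405 and the maximum 535 CPM, on 48 to 158 reads. Every MO liver exceeded 4 or more CON livers, but the groups overlapped, and the lowest value was in CON replicate 4. MO livers averaged 559.8 ± 88.0 CPM and CON livers 402 ± 128 CPM (SD, n = 5 and 6). The edgeR log2 difference was 0.48 (SE 0.22, 95% interval 0.01 to 0.94) with an adjusted p of 0.204, which did not pass the threshold of 0.05.

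hsa-miR-199b-5p, the paralogue's 5p arm, had the widest relative spread of the members in MO livers. MO replicates 1 and 2 stood at 337 and 376 CPM (223 and 285 reads), while MO replicates 3, 4 and 5 stood at 114, 82.7 and 94.2 CPM (87, 61 and 60 reads). CON livers had a minimum of 58.9, a median of 83.4 and a maximum of 166 CPM, on 16 to 44 reads. The MO group thus comprised a pair of livers above every CON liver and 3 livers inside the CON range. Means were 201 ± 143 CPM in MO and 97.4 ± 40.0 CPM in CON livers, 2.06-fold higher in MO (log2 1.04, SE 0.42, 95% interval 0.13 to 1.95). The edgeR adjusted p was 0.157, and without MO replicate 2 the log2 difference was 0.68 (edgeR adjusted p = 0.375).

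MO replicates 1 and 2 stood apart in other miRNAs too, but not in every list. The summed level of 14 stellate and mesenchymal miRNAs was 156100 and 157000 CPM there, against 112700 to 113500 CPM in the other MO livers and 92990 to 119600 CPM in CON livers. Most of that sum was 1 miRNA, miR-143-3p, at 125500 and 111700 CPM in MO replicates 1 and 2, so it does not speak for each miRNA of the list. In MO replicate 2 the summed level of 4 striated muscle miRNAs was 957.6 CPM, against 22.0 to 95.1 CPM in the other MO livers and 14.3 to 67.8 CPM in CON livers. The sum of the 2 endothelial miRNAs was also highest in MO replicates 1 and 2, at 16990 and 17100 CPM, against 12640 to 14310 CPM in the other MO livers and 9476 to 14290 CPM in CON livers. The hepatocyte miRNA miR-122-5p was lowest there, at 129500 and 103700 CPM, against 145400 to 184500 CPM in the other MO livers and 139000 to 212500 CPM in CON livers. The sum of the 6 hepatocyte miRNAs was lowest in MO replicate 2, at 379300 CPM. In MO replicate 1 that sum was 439300 CPM, inside the CON range of 400900 to 543500 CPM and above MO replicate 3, at 422300 CPM. The erythroid sums of MO replicates 1 and 2 (14680 and 9407 CPM) and their biliary sums (1316 and 1058 CPM) lay inside the CON ranges. So did the fibrosis-linked and leukocyte sums of MO replicate 1 (46570 and 1262 CPM). Those of MO replicate 2 did not (51540 and 973.4 CPM). The part of any of these in the miR-199b-5p values was not tested.

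hsa-miR-214-3p, the arm that targets CCN2, stood at 172, 156, 108, 114 and 86.3 CPM in MO replicates 1 to 5, on 55 to 118 reads. CON livers had a minimum of 77.3, a median of 152 and a maximum of 173 CPM, on 21 to 47 reads. The groups spanned the same range. The edgeR log2 difference was −0.10 (SE 0.24, 95% interval −0.62 to 0.41, adjusted p = 0.847). Its other arm, hsa-miR-214-5p, was too low to pass the expression filter, at 9 to 24 reads in MO livers and 1 to 9 reads in CON livers. It averaged 22.1 ± 8.24 CPM in MO and 18.9 ± 10.2 CPM in CON livers.

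**Figure D1:**
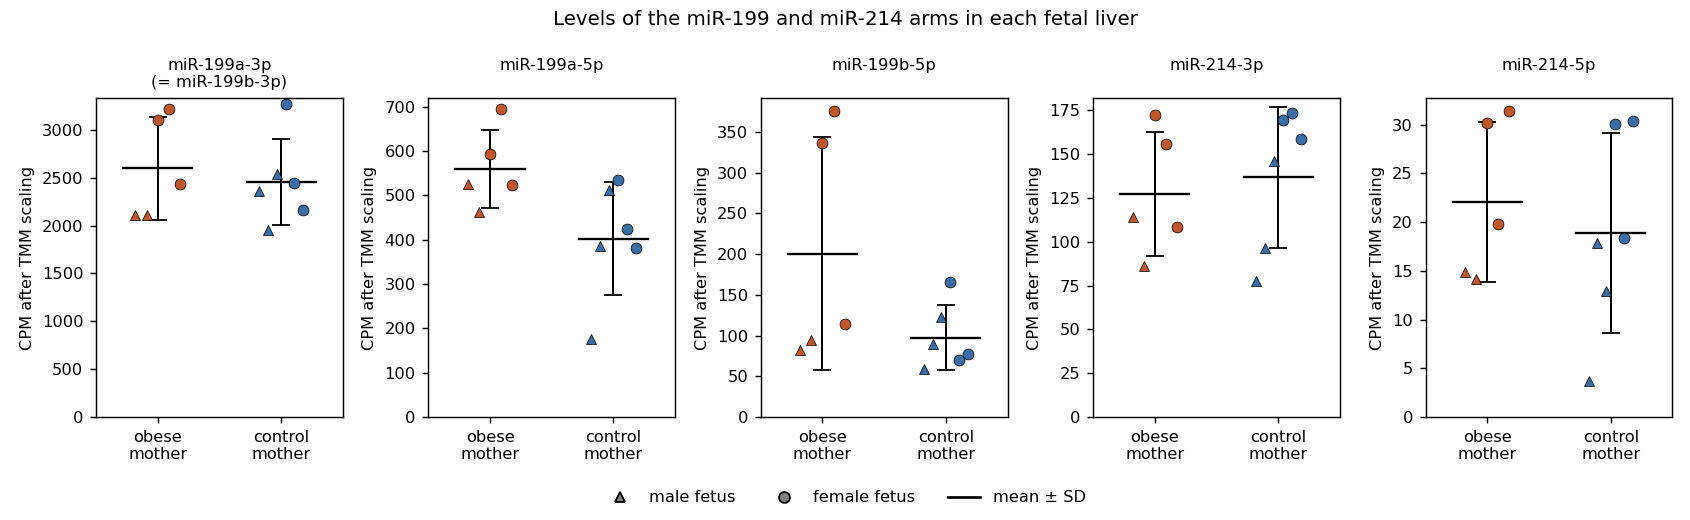
Level of each member in each liver, in CPM after TMM scaling, with a panel per member. Obese mothers are on the left and control mothers on the right, triangles are male and circles female fetuses, and bars give mean ± SD (n = 5 and 6). In the miR-199b-5p panel 2 female livers of obese mothers, at 337 and 376 CPM, lie above all others.

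By level, the arms kept the order miR-199-3p, miR-199a-5p, miR-214-3p or miR-199b-5p, and miR-214-5p. miR-199-3p exceeded every other arm in all 11 livers. miR-199b-5p and miR-214-3p had overlapping ranges in both groups and exchanged places, with miR-199b-5p at rank 115 of 218 in MO and 155 in CON livers, and miR-214-3p at rank 138 in MO and 132 in CON livers.

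Of the 5 member names that passed the filter (4 distinct values), 0 passed the edgeR threshold between MO and CON livers, against 24 of 218 tested names (11%). At an unadjusted p under 0.05 the members were 2, miR-199a-5p and miR-199b-5p, of 51 names in all. DESeq2 and limma-voom also called 0 members. The CPM ranges of the groups overlapped for every tested member, while 18 of 218 names had no overlap (8.26%). The median log2 difference was −0.05 over all 218 names.

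Fetal sex was the other comparison that the labels allow. Within male fetuses, miR-199b-5p averaged 88.5 ± 8.08 CPM in MO (n = 2) and 90.4 ± 32.1 CPM in CON livers (n = 3), with an edgeR log2 difference of −0.04 (95% interval −1.17 to 1.09, adjusted p = 0.990), where 9 of 218 names passed (4.13%). Within female fetuses it averaged 275 ± 141 CPM in MO and 104 ± 53.2 CPM in CON livers (SD, n = 3 each). The edgeR log2 difference was 1.40 (SE 0.45, 95% interval 0.42 to 2.38, adjusted p = 0.0860), where 13 of 218 names passed (5.96%). It passed the threshold in DESeq2 (log2 1.44, adjusted p = 0.0244), without the expression filter (log2 1.5, edgeR adjusted p = 0.000159) and without MO replicate 3 (log2 1.78, edgeR adjusted p = 0.0242). It did not pass under the other alternatives, among them limma-voom (log2 1.31, adjusted p = 0.161) and leaving out MO replicate 2 (log2 1.11, edgeR adjusted p = 0.333).

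The difference between the effect in males and that in females was itself tested. For miR-199b-5p it was −1.45 on the log2 scale (SE 0.69, 95% interval −2.95 to 0.06), which did not pass (edgeR adjusted p = 0.575). This test called 0 of 218 names (0%), in edgeR, DESeq2 and limma-voom, with 14 names at an unadjusted p under 0.05. For miR-199a-5p the maternal log2 difference was 0.46 in males (SE 0.33, edgeR adjusted p = 0.431) and 0.44 in females (SE 0.30, edgeR adjusted p = 0.520), with a 95% interval of −0.94 to 0.99 for the difference of these effects. For miR-214-3p it was −0.09 in males (SE 0.30, edgeR adjusted p = 0.936) and −0.20 in females (SE 0.26, edgeR adjusted p = 0.750), with an interval of −0.76 to 0.97. For miR-199-3p it was −0.11 in males (SE 0.21, edgeR adjusted p = 0.805) and 0.15 in females (SE 0.19, edgeR adjusted p = 0.732), with an interval of −0.88 to 0.35.

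**Figure D2:**
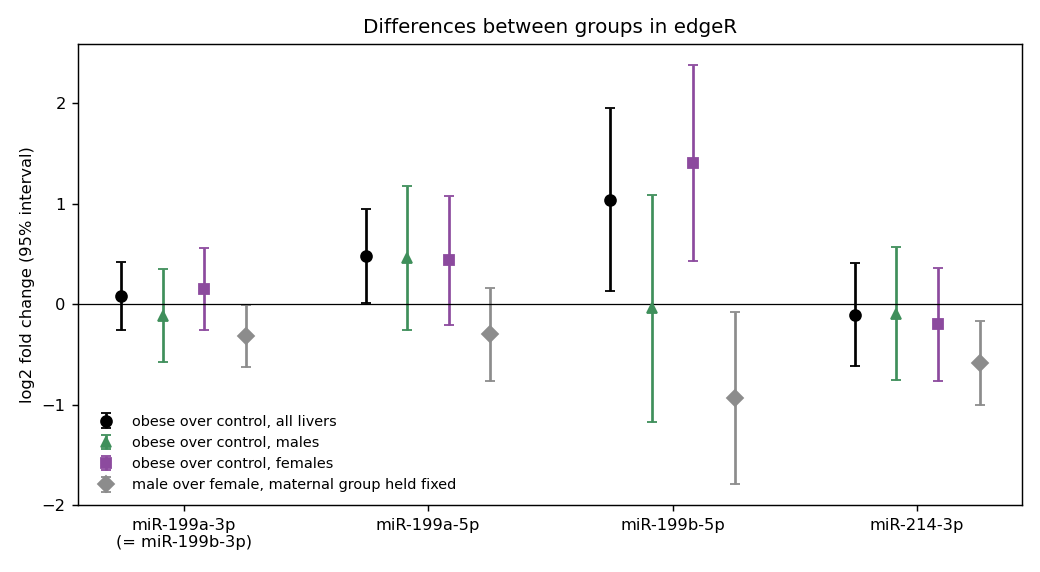
Log2 fold change of each tested member from edgeR, with 95% intervals, for obese over control mothers in all livers, in males and in females, and for male over female fetuses with the maternal group held fixed. The maternal interval of miR-199b-5p spans 0 in males and lies above it in females. Over all livers the maternal intervals of miR-199a-5p and miR-199b-5p lie above 0, and that of miR-214-3p spans 0. For males over females the intervals of miR-214-3p, miR-199b-5p and miR-199a-3p lie below 0. The intervals are not adjusted for the number of names tested, and no difference shown passed the adjusted edgeR threshold.

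All 4 distinct values of the family had negative log2 differences of males from females, none past the threshold. miR-214-3p had the lowest p of them, rank 5 of 218. It averaged 100.1 ± 19.5 CPM in male (n = 2) and 145 ± 33.0 CPM in female livers (n = 3) of the MO group. In the CON group it averaged 107 ± 35.3 CPM in male and 167 ± 7.69 CPM in female livers (n = 3 each). The sexes differed in the same direction in both maternal groups, with overlap between MO male and MO female livers and none between CON male livers, at 77.3 to 146 CPM, and CON female livers, at 158 to 173 CPM. In CON livers 34 of 218 names had no overlap between the sexes (15.6%). The log2 difference of males from females was −0.59 (SE 0.20, 95% interval −1.01 to −0.17, edgeR adjusted p = 0.323). It was −0.93 for miR-199b-5p (SE 0.40, edgeR adjusted p = 0.450), −0.32 for miR-199-3p (SE 0.14, edgeR adjusted p = 0.450) and −0.30 for miR-199a-5p (SE 0.21, edgeR adjusted p = 0.786). No name passed here: edgeR, DESeq2 and limma-voom each called 0 of 218 (0%), with 22 at an unadjusted p under 0.05 in edgeR.

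The arms of the miR-199 hairpins are compared within a library, where scaling cancels. The shared miR-199-3p reads exceeded the miR-199a-5p reads in all 11 livers. Set against these shared reads, the 5p to 3p ratio of miR-199a ranked 7 from the lowest among 41 loci with both arms tested. That of miR-199b, set against the same reads, ranked 5, so neither rank gives the arm preference of 1 paralogue. Shared 3p reads per miR-199a-5p read were 5.24, 4.64, 4.65, 4.02 and 4.56 in MO replicates 1 to 5. In CON livers the minimum was 4.97, the median 5.73 and the maximum 13.4, the last in CON replicate 4, which had only 48 5p reads. MO replicate 1 overlapped the CON range. On the log2 scale the 5p to 3p ratio of miR-199a was −2.20 ± 0.14 in MO and −2.67 ± 0.53 in CON livers, a difference of 0.46 (SE 0.24, limma adjusted p = 0.286 over 41 loci). Without CON replicate 4 it was 0.25 (limma adjusted p = 0.296). That of miR-199b was −3.97 ± 0.76 in MO and −4.70 ± 0.42 in CON livers, a difference of 0.73 (SE 0.32, limma adjusted p = 0.286).

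**Figure D3:**
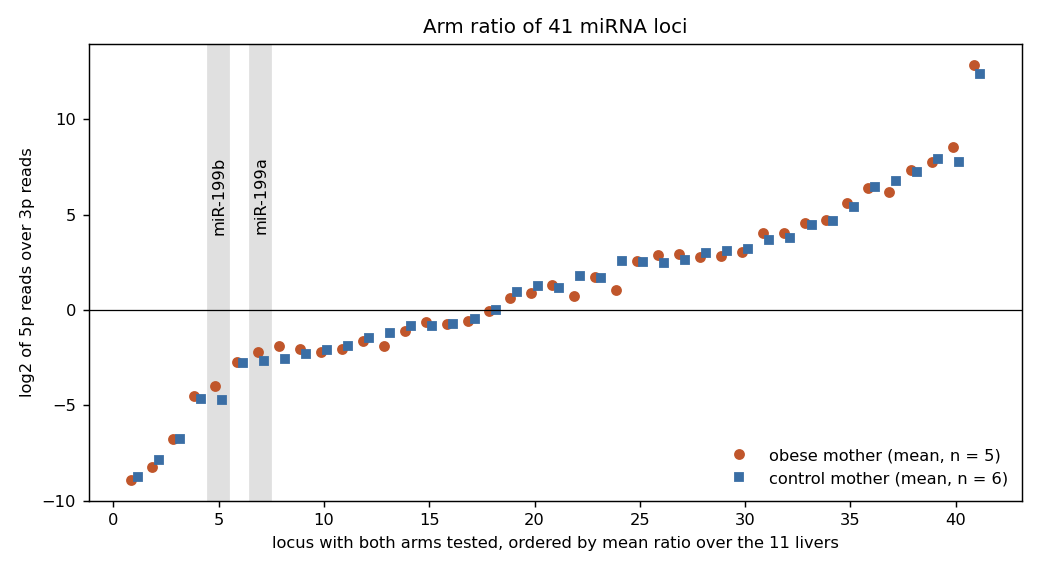
Mean log2 of 5p over 3p reads at 41 loci in ascending order, with circles for obese mothers (n = 5) and squares for control mothers (n = 6). The shaded miR-199b and miR-199a loci, at ranks 5 and 7, lie at the 3p-rich end.

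Because the 3p reads of the paralogues cannot be split, the 5p reads of miR-199a and miR-199b were also summed, a choice made after the data were seen. There were 3.34, 3.01, 3.82, 3.48 and 3.79 3p reads per summed 5p read in MO replicates 1 to 5. CON livers had a minimum of 4.005, a median of 4.69 and a maximum of 10.02, so the groups did not overlap. This held for 3 of the 40 loci in this form (7.5%), the others being miR-145 and miR-181a. The log2 difference of the 5p to 3p ratio was 0.56 (SE 0.22), which did not pass over 40 loci (limma adjusted p = 0.301). Without CON replicate 4 it was 0.36 (SE 0.13, limma adjusted p = 0.114 over 46 loci).

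The only locus of 41 past the limma threshold (2.44%) was miR-145, a mesenchymal miRNA, whose log2 5p to 3p ratio was 1.06 ± 0.27 in MO and 2.56 ± 0.31 in CON livers (difference −1.5, adjusted p = 9.78e-05). Its difference runs towards 3p, opposite in sign to those of miR-199a and miR-199b. miR-214 had 3.46 to 7.87 3p reads per 5p read in MO livers and 5.22 to 21.0 in CON livers, the highest in CON replicate 4 on 1 5p read, and its locus did not pass the filter.

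A pair of ratios within the family was tested by exact permutation over the 462 splits of the livers (two-sided, smallest possible p 0.00216). For miR-214-3p, the partner of miR-199a on DNM3OS, there were 29.0, 22.4, 20.7, 21.7 and 18.6 reads per 100 miR-199a-5p reads in MO replicates 1 to 5. In CON livers there were at least 25, a median of 36.3 and at most 43.8. MO replicate 1 lay inside the CON range and the other MO livers lay below it. The mean was 22.5 ± 3.91 in MO and 35.2 ± 7.84 in CON livers, a log2 difference of −0.64 (exact permutation p = 0.0130, adjusted p = 0.0260 over the 2 ratios). With any of MO replicates 2, 3, 4 or 5 left out, the adjusted p was 0.0571 (exact permutation), at log2 differences of −0.64, −0.61, −0.63 and −0.58. The miR-199a-5p reads cannot be assigned to the DNM3OS copy. Apart from these 2 ratios, no ratio between hairpins was tested, so the share of such ratios that would pass is not known.

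For the paralogues there were 56.7, 54.2, 21.7, 15.8 and 20.3 miR-199b-5p reads per 100 miR-199a-5p reads in MO replicates 1 to 5. In CON livers there were at least 16.5, a median of 23.6 and at most 33.3. The same female livers, MO replicates 1 and 2, stood above all others, so their miR-199b-5p was high relative to miR-199a-5p too. The difference between groups did not pass (33.7 ± 19.97 in MO and 24.7 ± 6.37 in CON livers, log2 difference 0.27, exact permutation p = 0.487, adjusted p = 0.487). It was 0.03 without MO replicate 1, 0.04 without MO replicate 2 and up to 0.49 without MO replicate 4 (exact permutation adjusted p of 0.243 to 0.943).

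**Figure D4:**
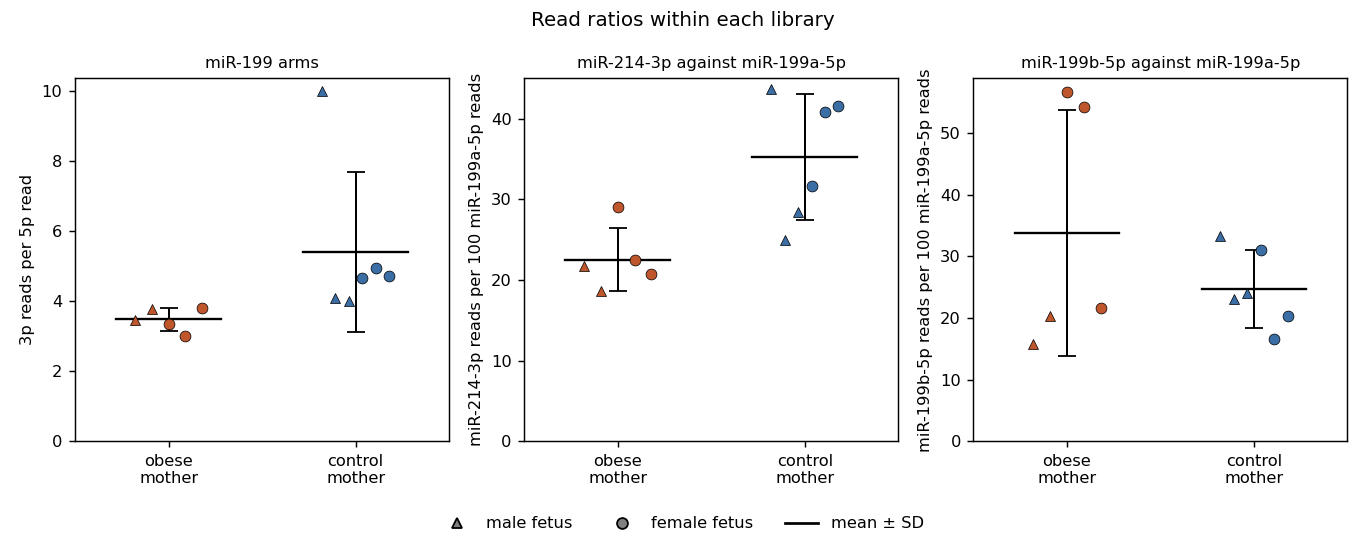
Ratios of reads within each library, from left to right 3p reads per summed 5p read of miR-199, miR-214-3p per 100 miR-199a-5p reads, and miR-199b-5p per 100 miR-199a-5p reads. Obese mothers are left of control mothers, triangles are male and circles female fetuses, and bars are mean ± SD. In the left panel all 5 livers of obese mothers, at 3.01 to 3.82, lie below all 6 controls.

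From liver to liver the members varied together, with fetal sex left in the values. Every tested member had a negative log2 difference of males from females, and the part of sex in these correlations was not tested. With maternal group means removed, log2 CPM over the 11 livers gave Pearson r of 0.85 for miR-199-3p with miR-199b-5p and of 0.79 for miR-199a-5p with miR-214-3p (permutation test, adjusted p = 0.00876 each over 6 pairs). Spearman rho was 0.71 and 0.75 for these pairs (permutation test, adjusted p = 0.0275 each). The other 4 pairs had r of 0.46 to 0.67 and rho of 0.65 to 0.79, and by r 3 of them passed (permutation test, adjusted p = 0.0280). The pair that did not was miR-199a-5p with miR-199-3p, whose reads miR-199b shares (r = 0.46, permutation adjusted p = 0.119, and rho = 0.70, permutation adjusted p = 0.0275). Without the 2 livers farthest from the median of the first-named member, no pair passed (permutation test, adjusted p of 0.0828 to 0.129, n = 9). There r was higher for miR-199a-5p with miR-199-3p (0.70) and with miR-199b-5p (0.73), and lower for the other 4 pairs (0.54 to 0.75). Within the 6 CON livers r was 0.38 to 0.82 (exact permutation test, adjusted p of 0.117 to 0.419). No value was computed within the 5 MO livers.

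Likeness to other miRNAs was taken as Pearson r of log2 CPM over the same 11 livers, group means removed, among 184 miRNAs with a mean of at least 50 CPM, as a description with no test. Nearest to miR-199-3p were miR-145-5p (r = 0.84), miR-378a-5p (0.83), miR-10b-5p (0.79), miR-145-3p (0.73) and miR-181c-5p (0.70). In the same order Spearman rho was 0.82, 0.79, 0.52, 0.63 and 0.60. Of these nearest miRNAs, miR-145-5p, miR-145-3p and miR-10b-5p belong to the mesenchymal list. miR-143-3p, which shares a transcript with miR-145, was at rank 7 (r = 0.67). The ranks of the list's other members, among them miR-22-3p, miR-100-5p and miR-125b-5p, are not given. The ranks shown therefore do not speak for the whole list. The hepatocyte miRNA miR-122-5p was at rank 157 (r = −0.33), and the endothelial miR-126-3p at rank 12 (r = 0.54). Nearest to miR-214-3p were miR-378a-5p (r = 0.86), miR-1260b (0.86), miR-1260a (0.85), miR-361-3p (0.83) and let-7b-5p (0.80). Their Spearman rho was 0.82, 0.87, 0.87, 0.63 and 0.79. For miR-214-3p, miR-143-3p was at rank 10 (r = 0.72) and miR-122-5p at rank 77 (r = 0.18). CON replicate 4 was the lowest of all livers in miR-214-3p, at 77.3 CPM, and in miR-1260a, at 55.2 CPM, and miR-1260b, at 47.9 CPM.

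**Figure D5:**
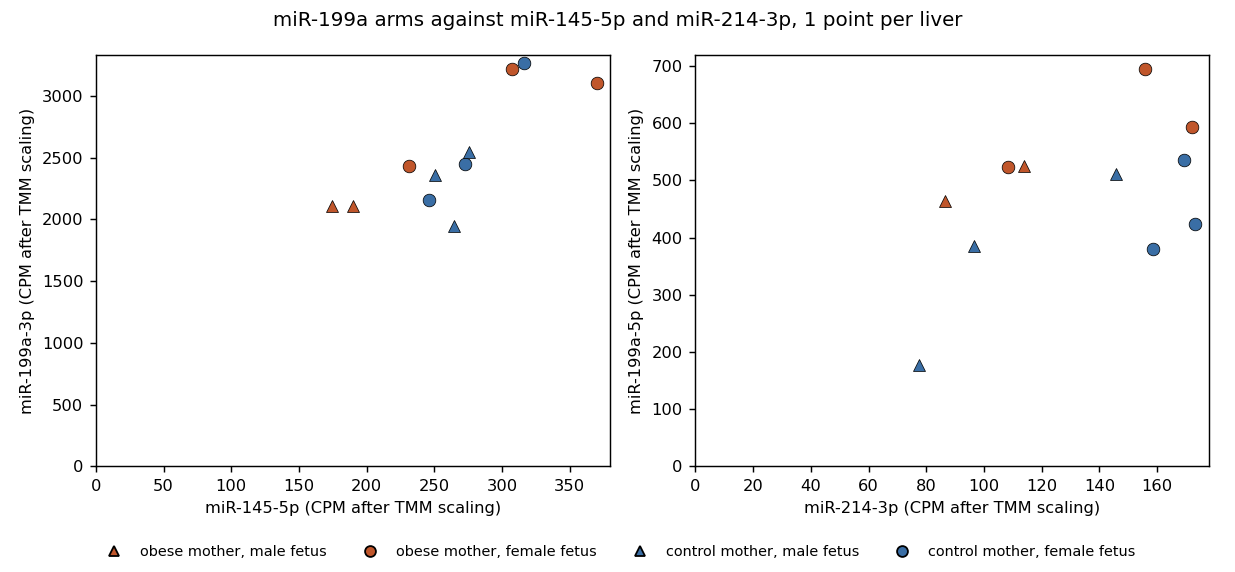
Each point is a liver, in CPM after TMM scaling: miR-199a-3p against miR-145-5p on the left and miR-199a-5p against miR-214-3p on the right, with colour for the mother's group and shape for fetal sex. MO replicates 1 and 2 and CON replicate 1 form the upper right of the left panel, and CON replicate 4 is the low point of the right panel.

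Other miRNAs of stellate and mesenchymal cells were set beside the family. Of 14 in the table, 11 were tested, and 1 was higher and 0 lower with maternal obesity, near the 11% called over all 218 names. The median log2 difference was 0.27. That member was miR-145-3p, at 120 ± 30.8 CPM in MO and 45.7 ± 12.8 CPM in CON livers (log2 1.39, SE 0.23, edgeR adjusted p = 0.00229). The other arm of that hairpin, miR-145-5p, is on the same list and did not pass. It stood at 254.5 ± 82.5 CPM in MO and 270.8 ± 25.2 CPM in CON livers (log2 −0.09, SE 0.19, edgeR adjusted p = 0.846). The most abundant were miR-143-3p, at 125500, 111700, 89620, 87660 and 90380 CPM in MO replicates 1 to 5 and 73170 to 89680 CPM in CON livers (log2 0.36, SE 0.11, edgeR adjusted p = 0.0534), and miR-22-3p (log2 −0.05, edgeR adjusted p = 0.847). MO replicates 1 and 2, the livers highest in miR-199b-5p, were also the highest in miR-143-3p. Between the sexes the list had a median log2 difference of −0.36 for males from females, with 0 of 11 passing in edgeR. Over all 218 names 0 passed in that comparison (0%), and the median log2 difference was 0.006.

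Of 13 miRNAs linked to fibrosis, 10 were tested and 0 passed in edgeR (11% over all 218 names), with a median log2 difference of 0.10. They include miR-21-5p, a profibrotic miRNA, at 4487 ± 474 CPM in MO and 4120 ± 237 CPM in CON livers (log2 0.12, edgeR adjusted p = 0.475), and miR-29a-3p, which represses collagen genes, at 176 ± 27.6 CPM in MO and 211 ± 45.4 CPM in CON livers (log2 −0.26, edgeR adjusted p = 0.362). The most abundant of the list were miR-27b-3p (log2 0.15, edgeR adjusted p = 0.494) and miR-21-5p.

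Markers of the other cells of fetal liver were counted in the same way, against the same 11% of all 218 names. Of 6 hepatocyte miRNAs 1 was lower, miR-885-5p, at 77.5 ± 20.4 CPM in MO and 157 ± 15.6 CPM in CON livers (log2 −1.01, edgeR adjusted p = 0.00370), and the list's median was 0.01. Of the 2 endothelial miRNAs miR-126-5p was higher (log2 0.46, edgeR adjusted p = 0.0476). Of 5 tested leukocyte miRNAs miR-146a-5p was lower (log2 −0.66, edgeR adjusted p = 0.0117), with a median of −0.47. Neither the 4 erythroid miRNAs (median −0.35) nor the 4 tested biliary ones (median −0.16) had a member past the edgeR threshold.

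The abundant members of these lists did not pass, apart from those named. miR-192-5p and miR-122-5p of hepatocytes had log2 differences of −0.05 and −0.28 (edgeR adjusted p = 0.846 and 0.300), and the endothelial miR-126-3p one of 0.17 (edgeR adjusted p = 0.464). The leukocyte miR-142-5p had −0.31 (edgeR adjusted p = 0.235), the erythroid miR-486-5p and miR-451a −0.29 and −0.55 (edgeR adjusted p = 0.466 and 0.226), and the biliary miR-200b-3p and miR-200a-3p −0.26 and −0.07 (edgeR adjusted p = 0.525 and 0.899). Summed list levels overlapped between the groups. They were 379300 to 505100 CPM in MO and 400900 to 543500 CPM in CON livers for hepatocytes, 12640 to 17100 CPM in MO and 9476 to 14290 CPM in CON livers for endothelium, and 973 to 1262 CPM in MO and 1137 to 2037 CPM in CON livers for leukocytes. For erythroid cells they were 7302 to 14680 CPM in MO and 7066 to 16720 CPM in CON livers, and for biliary cells 747 to 1316 CPM in MO and 554 to 1457 CPM in CON livers. No marker was at 0 in every library, and the part of these lists in the members' values was not tested.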

How the data were processed

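Small RNA was sequenced from 11 fetal livers. The authors deposited unscaled read counts for each mature miRNA at each hairpin. Human build hg18 is named in the submitters' processing notes, and the sources used here state no settings of the counting step. The table repeats its 2234 rows (4468 in all), and each row was used 1 time. For a name on several hairpins the row of highest total was kept (313 further rows dropped), giving 1921 names, 645 with reads. The 11 normalised columns of the same table were not used, nor was the table of predicted miRNAs.

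edgeR 4.0.16 in R 4.3.3 (TMM, default expression filter, quasi-likelihood test) tested 218 names holding at least 99.62% of each library's reads, with Benjamini-Hochberg adjustment over all 218 at a threshold of 0.05. The maternal comparison had no covariate. Sex-specific effects used a mean per group and sex, and the sex comparison held the maternal group fixed. Arm ratios were log2((5p + 0.5)/(3p + 0.5)), tested in limma 3.58.1. Correlations used 100000 resamples, or exact enumeration within CON livers. Alternatives included DESeq2 1.42.0, limma-voom, other scalings, no filter, thinning to 247288 reads, summed or merged rows, a replicate block and leaving out each library. The edgeR and limma steps were tested on simulated data.

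All 6 members are named whatever their values. Of each other list the 2 most abundant tested members and any past the threshold were to be named, and of likeness the 5 highest. The maternal differences of miR-29a-3p and miR-145-5p, and the ranks of miR-143-3p, miR-122-5p and miR-126-3p, are given besides. The members and lists were chosen with earlier results of these data known. Depth sets the precision: the control libraries' miR-214-5p rests on 1 to 9 reads.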

Additional observations from a re-analysis of the deposited data

Results flagged for a closer look

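CON replicate 4, a male fetus, had 13.35 miR-199a 3p reads per 5p read, where the CON median was 5.73, and 10.02 3p reads per summed miR-199 5p read, where the CON median was 4.69. Both stood apart from the other 5 CON livers by Dixon's criterion, in 20 groups of values examined, of which chance marks about 1 in 20. The miR-199a-5p count in this library was 48 reads, in the shallowest library (247288 reads). Its miR-199-3p level, at 2360 CPM, lay inside the range of the other CON livers, while miR-199a-5p, at 177 CPM, and miR-199b-5p, at 58.9 CPM, were the lowest of all livers.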

How the results depend on the processing

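Between MO and CON livers, 24 names passed in edgeR, 16 to 26 with a library left out and 17 to 29 under the other settings, and no member passed under any of them. miR-199a-5p kept a positive difference throughout, at 0.30 to 0.58 with a library left out and 0.45 to 0.61 otherwise, and miR-199b-5p likewise, at 0.68 to 1.29 and 0.80 to 1.11. With a library left out miR-199-3p ran from −0.00982 to 0.19 and miR-214-3p from −0.24 to 0.0456. Replicate numbers were shared by the groups, and the main test treated the livers as unpaired. Correlations of same-numbered livers were −0.16 to 0.30, without differently numbered livers for comparison, so they cannot decide whether the numbers pair them. Under a replicate block over replicates 1 to 5, 17 names passed, with miR-199b-5p at log2 0.94 (edgeR adjusted p = 0.104), miR-199a-5p at 0.61 (edgeR adjusted p = 0.144) and 1 arm ratio past the limma threshold.

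Within males the count of 9 was 27 without the filter, 18 in DESeq2 and 0 to 13 with a library left out. Within females the count of 13 names was 5 with hairpin rows summed, 8 with the miR-199-3p names merged, 6 after thinning, and 0 to 25 with a library left out: 0 without CON replicate 1, CON replicate 3 or MO replicate 2, and 25 without CON replicate 4. Without the filter 11 names passed for the difference between sexes in the maternal effect and 6 for males against females. That difference turned sign for miR-199a-5p with total counts (−0.24), no filter (−5.878e-05), summed rows (−0.077) and merged names (−0.0197), with −0.32 to 0.39 over left-out libraries. For miR-214-3p it turned with total counts (−0.16), with −0.10 to 0.43 over left-out libraries. In males miR-199b-5p turned without the filter (0.0278), with −0.30 to 0.26 over left-out libraries, and miR-214-3p ran from −0.31 to 0.23. The cause was not tested. Arm ratios past the threshold were 4 when loci needed 1 read of each arm in every library, and 1 to 5 with a library left out (5 without CON replicate 4). The miR-214-3p to miR-199a-5p ratio stayed at −0.73 to −0.57 with a library left out. On log2 CPM with no group means removed, 3 correlations lost their call, all with miR-214-3p (r 0.52 to 0.64). Thinning every library to the depth of the shallowest gave miR-214-3p a maternal difference of −0.26 with an SE of 0.26, against −0.10 and 0.24 at full depth. With a library left out the miR-199b-5p to miR-199a-5p ratio ran from 0.0278 to 0.49.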
